A study of Arabidopsis thaliana with 18 samples.

Results

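Roots of untreated lpcat seedlings were compared with roots of wild-type (WT) seedlings that had been raised on lysoPAF, in 6 of the 18 RNA-seq libraries of an Arabidopsis thaliana series. The lpcat control group (3 libraries) was the lpcat1/2 double mutant, made by combining T-DNA insertions in LPCAT1 and LPCAT2 in the Col-0 accession and represented by that single allele combination, on 1/2 MS medium without additive. The WT lysoPAF group (3 libraries) was Col-0 on the same medium with 20 µg/mL lysoPAF. All 6 libraries came from roots taken 5 days after germination under a long photoperiod at constant temperature, and no library of either group received ONO, the phospholipase inhibitor used elsewhere in the series. Genotype and medium both differ between the groups, so their parts in a difference cannot be told apart within this comparison. Values of the 3 WT control libraries (Col-0, no additive) are given beside many genes, to show on which side of untreated WT each group lay. The labels number the libraries of a group 1 to 3 but do not say whether these came from separate cultures, so the p-values measure the spread between these libraries, which may be technical.

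LPCAT1 and LPCAT2 are acyl-CoA:lysophosphatidylcholine acyltransferases of the endoplasmic reticulum (ER). They return lysophosphatidylcholine (LPC), which phospholipases release from phosphatidylcholine (PC), to PC, and this exchange of acyl chains is known as the Lands cycle. LysoPAF is an analogue of LPC with an ether-linked alkyl chain, which lysophospholipases do not remove. The mutant carries insertions in the genes for this reacylation, and WT on lysoPAF receives a lysophospholipid from the medium. Lysophospholipids disturb membranes, and in plants ER membrane stress is signalled through bZIP28 and bZIP60, transcription factors that raise chaperones such as the BIP proteins and parts of the export machinery.

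The library lpcat control 2 stood apart from lpcat control 1 and 3. Over the 23760 genes tested, the root mean square log2 difference was 0.577 between lpcat control 1 and 3, but 0.819 and 0.841 between lpcat control 2 and these 2 libraries, and 0.556 to 0.591 between lpcat control 2 and the 3 libraries of lpcat grown on lysoPAF. On the first principal component (30.7% of the variance of the 2000 most variable genes) lpcat control 2 lay at 32.53, lpcat control 1 and 3 at -31.22 and -34.42, and the WT lysoPAF libraries at -12.13 to -9.60. Its mitochondrial reads were 0.174% of all reads, against 0.0270% in lpcat control 1 and 3 and 0.0391% to 0.0808% in WT lysoPAF. The genotype of lpcat control 2 was that of its label, as LPCAT1 and LPCAT2 below show. Results are given with all libraries and, for most genes and lists, also without lpcat control 2. Depth was 8681898 to 16767002 reads in genes per library (median 10316716.5). All 14 root markers (among them WER, SCR, PLT1 and SUC2) were above 0 in every library, with summed normalized counts of 7155 to 7472 in lpcat control and 6383 to 6539 in WT lysoPAF. The 12 green tissue markers (RBCS, LHC, CA1 and GAPA genes) summed to 4677, 747.1 and 5150 in lpcat control and 1772, 1737 and 1948 in WT lysoPAF, and to 1920, 1920 and 5536 in WT control.

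The normalized counts quoted below are read counts divided by a scale factor per library. They compare 1 gene between libraries and not 1 gene with another, since they are not divided by gene length. LPCAT1 read 59.1, 72.1 and 47.3 in lpcat control and 308, 269 and 270.2 in WT lysoPAF. It had a log2 difference of -2.25 ± 0.14 (SE, limma adjusted p = 7.86e-09) or, without lpcat control 2, of -2.39 ± 0.14 (adjusted p = 9.67e-11). LPCAT2 read 435, 534 and 485 in lpcat control and 194, 232 and 186 in WT lysoPAF. LPCAT2 had a log2 difference of 1.247 ± 0.10 (SE, limma adjusted p = 1.54e-07) or, without lpcat control 2, of 1.17 ± 0.10 (adjusted p = 6.60e-08). The mutant thus had a lower count of LPCAT1 but a higher count of LPCAT2, with no overlap, and lpcat control 2 sat with its group in both. WT control libraries read 295, 247 and 250.4 for LPCAT1 and 197, 234 and 218 for LPCAT2, close to WT lysoPAF. A count over the whole gene does not show whether the transcript is intact.

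With all libraries, 51 genes (0.215% of 23760) were higher in lpcat control and 29 (0.122%) were lower, at a limma adjusted p under 0.05 and a log2 difference over 1 in size. Without lpcat control 2 the counts rose to 243 (1.02%) and 199 (0.838%), and edgeR with RLE factors gave 225 and 114 on the same libraries. Of the genes called with all libraries, 45 higher and 27 lower were also called without it, and 0 changed direction. The 2 groups did not overlap in 78 of the 80, but the calls rest on the same values, so this is not further support. At an adjusted p under 0.05 with no limit on size, 199 genes (0.838%) were higher and 80 (0.337%) lower with all libraries, and 1080 (4.55%) and 607 (2.55%) without lpcat control 2. These shares are the background for the gene lists below, whose counts are from limma unless another tool is named. The 2 transcriptomes also overlapped to a large extent. A gene is called alike here where the 95% interval of its log2 difference lies wholly within 1.5-fold either way, which 12567 genes (52.9%) met with all libraries and 11830 (49.8%) without lpcat control 2. A small and precise difference can be alike and still pass the test, as it did in 49 genes with all libraries and 381 without lpcat control 2, so the counts of alike genes below include such genes. A gene is undecided where it neither passed nor was alike, which held for 10963 genes with all libraries. The median log2 difference over all genes was 0.00 either way.

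These counts depend on the spread taken from all 18 libraries. In a fit to the 6 compared libraries alone, 3 genes were called higher and 1 lower with lpcat control 2 (2300 genes at an unadjusted p under 0.05), and 65 and 31 without it. Of the 55 genes named in the text that passed with all libraries, 28 also passed without each of the 6 libraries in turn. For the other calls, the libraries on which they rest are named beside them. In the fit to the 6 libraries alone, 3 of the 55 passed (AT2G01422, AT5G35935 and MRD1) and the other 52 did not, BIP3, PMT1 and HSP70-4 among them.

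**Figure D1:**
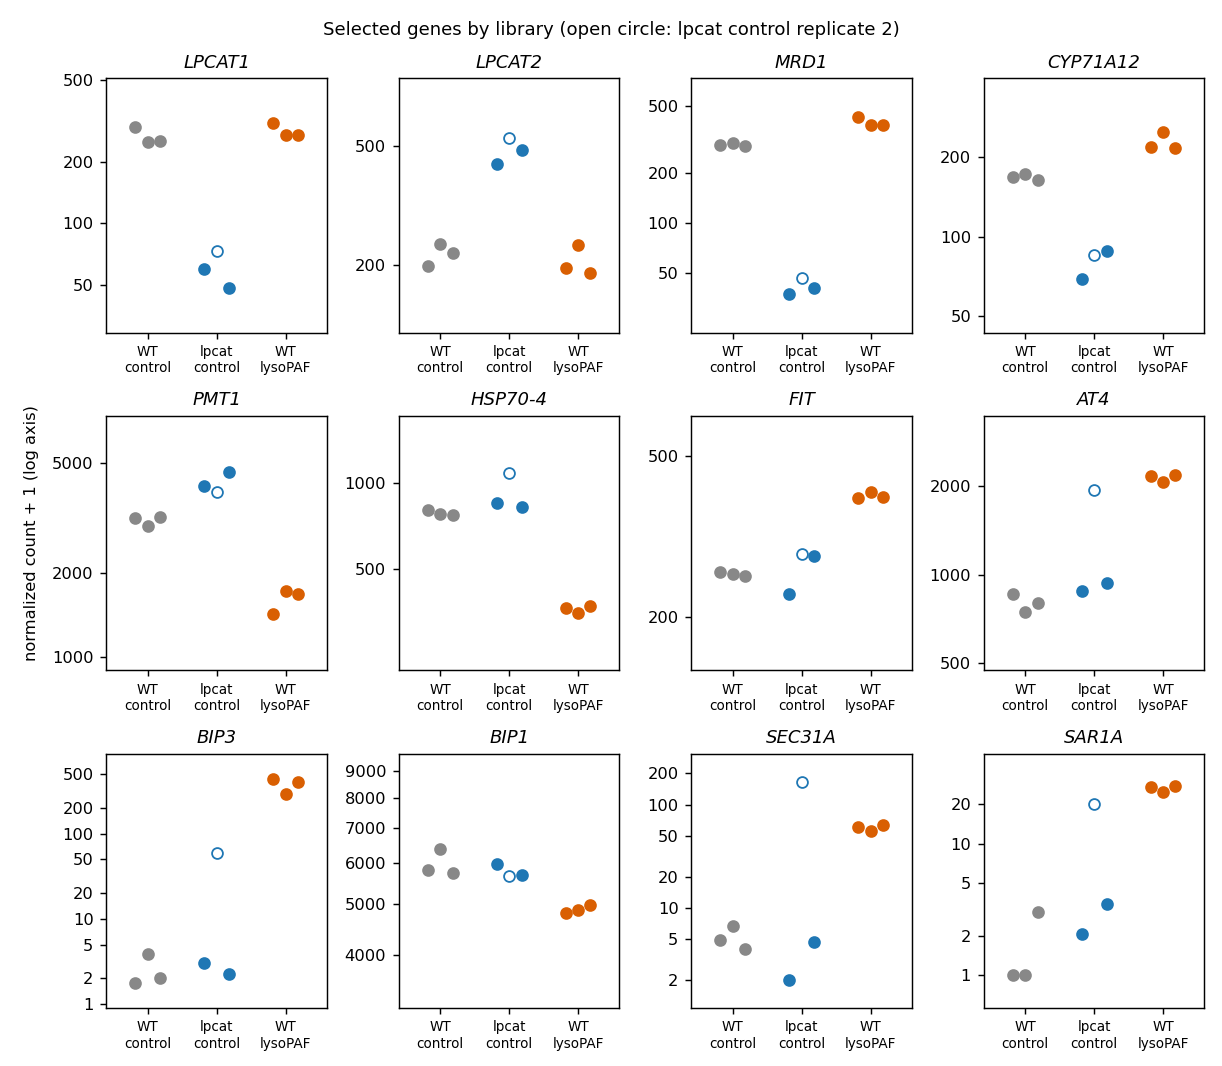
Normalized counts plus 1 on a log axis for 12 genes in the 3 WT control, 3 lpcat control and 3 WT lysoPAF libraries, each point 1 library, with lpcat control 2 as an open circle. PMT1, HSP70-4 and LPCAT2 lie higher in lpcat control than in WT lysoPAF, BIP1 lies within 1.5-fold, LPCAT1, MRD1, CYP71A12, FIT and BIP3 lie lower, and the open circle leaves its group in AT4, BIP3, SEC31A and SAR1A.

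The ER chaperone BIP3 had the largest negative log2 difference of the genes called with all libraries. It is the inducible member of the BIP family, the HSP70 chaperones of the ER lumen. BIP3 read 2.07, 58.9 and 1.24 in lpcat control and 439, 286 and 397 in WT lysoPAF. BIP3 had a log2 difference of -5.63 ± 0.73 (SE, limma adjusted p = 2.72e-04) or, without lpcat control 2, of -7.14 ± 0.30 (adjusted p = 2.86e-13). Its counts in lpcat control 1 and 3 were as low as in WT control (0.791, 2.88 and 0.998), while lpcat control 2 lay between the groups. The same gene read 78.2, 105 and 122 in lpcat on lysoPAF. The constitutive members were within 1.5-fold. BIP1 read 5966, 5664 and 5681 in lpcat control and 4819, 4876 and 4979 in WT lysoPAF. Every lpcat control library was above every WT lysoPAF library, yet the 95% interval of the difference was 0.08 to 0.39, and BIP2 was alike with an interval of 0.08 to 0.43. BIP1 and BIP2 are near-identical, so their counts may share reads.

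The export genes SAR1A and SEC31A encode a GTPase and a coat protein of the COPII vesicles that leave the ER. In the main limma fit both passed as lower without lpcat control 2 and not with it. SAR1A passed in 2 of 18 alternatives and SEC31A in 1, leaving out lpcat control 2 among them. SEC31A read 1.04, 165 and 3.73 in lpcat control and 59.7, 53.9 and 63.1 in WT lysoPAF. Here lpcat control 2 was above every WT lysoPAF library and lpcat control 1 and 3 were far below. SEC31A had a log2 difference of -2.35 ± 0.93 (SE, limma adjusted p = 0.249) or, without lpcat control 2, of -4.27 ± 0.38 (adjusted p = 1.18e-07). SAR1A read 1.04, 19.0 and 2.49 in lpcat control and 26.0, 23.64 and 26.3 in WT lysoPAF. SAR1A had a log2 difference of -2.33 ± 0.59 (SE, limma adjusted p = 0.0576) or, without lpcat control 2, of -3.30 ± 0.44 (adjusted p = 3.70e-05). bZIP60 itself, the transcription factor that the ER stress sensor IRE1 activates by splicing, read 249.8, 513 and 244 in lpcat control and 411, 292 and 345 in WT lysoPAF. It was alike with all libraries (-0.14, interval -0.54 to 0.27) and lower without lpcat control 2 (-0.49, limma adjusted p = 0.0187). Spliced and unspliced bZIP60 are not separated by a count per gene.

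The promoters of these genes are shown because BIP3, SEC31A and SAR1A moved while BIP1 and BIP2 stayed within 1.5-fold. Each line gives the 250 bases before the annotated gene start in RefSeq's TAIR10.1, read 5′ to 3′, with capitals marking the core ACGTG, to which plant bZIP factors bind, on either strand.
BIP3 chr1:2931851-2932100 (minus strand): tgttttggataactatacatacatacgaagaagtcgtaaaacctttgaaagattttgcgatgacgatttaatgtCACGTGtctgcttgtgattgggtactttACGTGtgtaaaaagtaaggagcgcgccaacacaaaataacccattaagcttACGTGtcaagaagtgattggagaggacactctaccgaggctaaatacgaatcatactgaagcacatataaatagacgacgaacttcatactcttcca
SEC31A chr1:6488983-6489232 (plus strand): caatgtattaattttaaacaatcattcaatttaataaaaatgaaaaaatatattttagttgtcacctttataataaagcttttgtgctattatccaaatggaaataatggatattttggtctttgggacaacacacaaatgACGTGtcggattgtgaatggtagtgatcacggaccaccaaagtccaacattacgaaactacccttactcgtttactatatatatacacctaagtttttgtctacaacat
SAR1A chr1:2964773-2965022 (plus strand): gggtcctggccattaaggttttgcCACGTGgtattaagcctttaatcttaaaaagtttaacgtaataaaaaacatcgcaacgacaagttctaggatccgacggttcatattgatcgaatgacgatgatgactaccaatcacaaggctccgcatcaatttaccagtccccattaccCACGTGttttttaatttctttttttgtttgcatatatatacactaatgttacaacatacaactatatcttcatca
BIP1 chr5:10543559-10543808 (minus strand): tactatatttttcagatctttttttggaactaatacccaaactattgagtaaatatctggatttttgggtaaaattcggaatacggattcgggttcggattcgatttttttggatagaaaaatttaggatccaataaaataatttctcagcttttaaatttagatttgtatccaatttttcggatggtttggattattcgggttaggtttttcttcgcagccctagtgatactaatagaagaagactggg
BIP2 chr5:16810694-16810943 (minus strand): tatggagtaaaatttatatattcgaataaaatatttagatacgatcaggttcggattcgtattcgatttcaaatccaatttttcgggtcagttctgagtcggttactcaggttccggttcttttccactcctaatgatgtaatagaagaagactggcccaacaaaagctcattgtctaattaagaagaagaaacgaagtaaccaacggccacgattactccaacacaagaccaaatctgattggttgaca
The core stood at 3 places before BIP3, 1 before SEC31A and 2 before SAR1A, and at 0 before BIP1 and BIP2. It was chosen after these sequences had been read, and 22.9% of 27443 windows of the same length before protein-coding genes hold it. Neither CCACGTCA (in 342 windows) nor CCAAT and CCACG spaced by 10 bases (in 7 windows) occurred in these 5 windows on either strand. Shorter forms of that pair and other spacings were not searched for, so their absence is not shown. No match says only that the letters are not in the window. Such matches describe letters in a window, and binding was not measured.

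Of the 33 ER chaperone and unfolded protein response genes tested, 0 were higher in limma, 1 (BIP3) was lower and 29 were alike with all libraries, against 52.9% alike over all genes. Of these genes 14 were at an unadjusted p under 0.05, and DESeq2 called 4 higher (BIP1, BIP2 and bZIP28 among them), against 0 in edgeR. With lpcat control 2 left out, limma called 3 higher (bZIP28, bZIP17 and the sensor IRE1A) and 1 lower, and the 29 alike genes included the 3 that were higher. bZIP28, the membrane-bound factor, read 437, 466 and 463 in lpcat control and 329, 389.6 and 368 in WT lysoPAF. Its size was much the same in both fits, 0.32 without lpcat control 2 (limma adjusted p = 0.0394) and 0.33 with it (adjusted p = 0.0567). The study singled out 12 ER stress and trafficking genes from these samples, so that their direction is not independent evidence. In each of limma, edgeR and DESeq2, 1 of these was higher and 0 were lower with all libraries, and 10 were undecided in limma. In the fit without lpcat control 2, 1 was higher and 3 (SEC31A, SAR1A and bZIP60) lower. The higher gene is AT3G53230, named CDC48D by the study and CDC48B in the annotation, an AAA ATPase of the family that pulls misfolded proteins from membranes for degradation. CDC48B read 326, 721 and 305 in lpcat control and 219, 206 and 231 in WT lysoPAF. It had a log2 difference of 0.92 ± 0.21 (SE, limma adjusted p = 0.0336) or, without lpcat control 2, of 0.53 ± 0.12 (adjusted p = 0.00647), and the call was lost without WT lysoPAF 1, 2 or 3 (limma adjusted p up to 0.124). AT5G42050, a DCD domain protein, read 2513, 5773 and 2582 in lpcat control and 3027, 2622 and 2778 in WT lysoPAF, with lpcat control 2 alone high. It was undecided with all libraries and alike without lpcat control 2. NAC103, ERDJ3A, PRA1.F1, ARFB1A and AP180 were undecided both ways. SEC1B and PRA1.B5, a prenylated RAB acceptor, were undecided with all libraries and alike without lpcat control 2. PRA1.B5 read 50.8, 128 and 46.0 in lpcat control and 43.7, 53.9 and 54.7 in WT lysoPAF. Both groups were above WT control (21.4, 20.14 and 17.96), with differences of 1.248 for lpcat control without its library 2 and 1.31 for WT lysoPAF against WT control (limma adjusted p = 7.69e-04 and 0.0187).

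**Figure D2:**
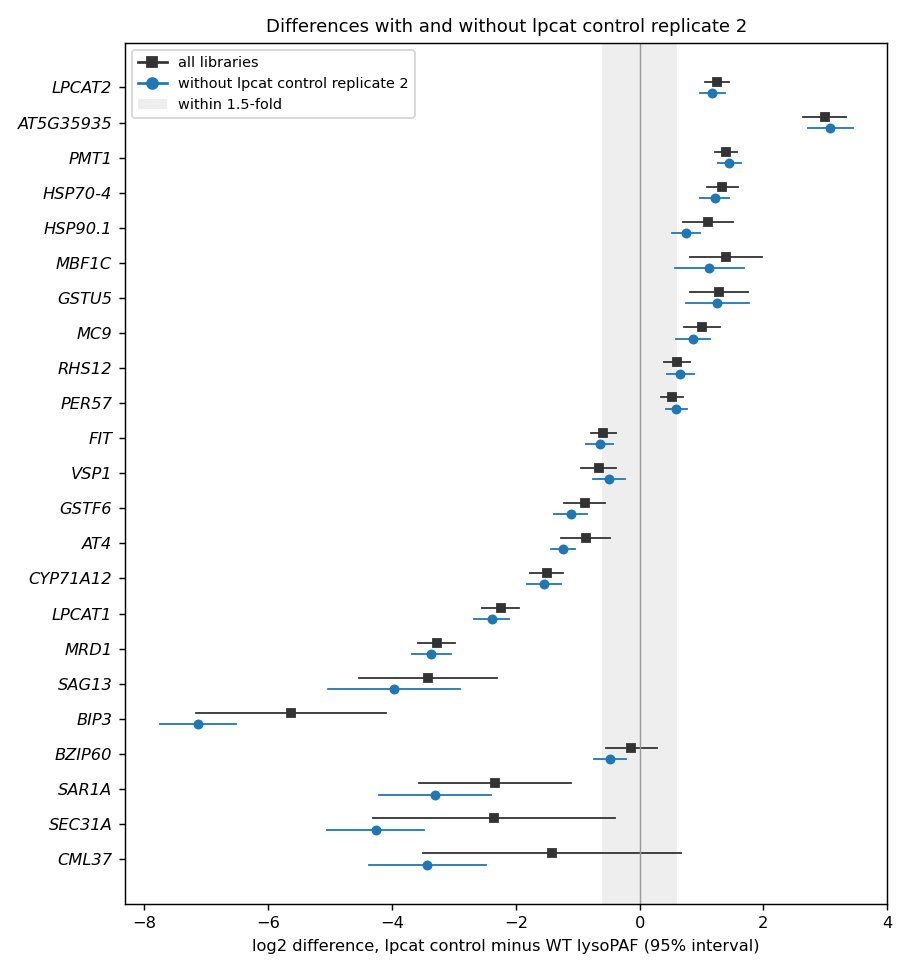
Log2 difference (lpcat control minus WT lysoPAF) with its 95% interval for 23 genes, with all libraries (squares) and without lpcat control 2 (circles), the shaded band marking differences within 1.5-fold. BIP3 moves from -5.63 to -7.14 and SEC31A from -2.35 to -4.27.

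Genes of phospholipid metabolism were mostly alike, with PMT1 the clearest exception. PMT1 encodes phosphoethanolamine N-methyltransferase, the enzyme that makes phosphocholine for PC. It read 4132, 3911 and 4641 in lpcat control and 1420.1, 1726 and 1678 in WT lysoPAF. PMT1 had a log2 difference of 1.40 ± 0.09 (SE, limma adjusted p = 6.23e-09) or, without lpcat control 2, of 1.45 ± 0.09 (adjusted p = 1.66e-10). WT control lay between, at 3171, 2954 and 3196, and the groups lay on opposite sides of it, with differences of 0.44 for lpcat control and -0.95 for WT lysoPAF against WT control (limma adjusted p = 0.00694 and 1.58e-05). PECP1, a phosphatase that releases ethanolamine and choline from their phosphates, was low in all libraries and read 12.4, 24.7 and 4.98 in lpcat control and 0.84, 0 and 3.15 in WT lysoPAF. PECP1 had a log2 difference of 2.69 ± 0.55 (SE, limma adjusted p = 0.0185) or, without lpcat control 2, of 2.19 ± 0.55 (adjusted p = 0.0173), and the call was lost without WT lysoPAF 1 or 2 (limma adjusted p up to 0.107). PLP2, a patatin-like acyl hydrolase, was lower in lpcat control and read 8.29, 7.59 and 12.4 in lpcat control and 19.3, 20.8 and 18.9 in WT lysoPAF. PLP2 differed by -1.01 ± 0.24 (limma adjusted p = 0.0454, and -0.89 without lpcat control 2), a call lost without lpcat control 1 or WT lysoPAF 1, 2 or 3 (limma adjusted p up to 0.14). In the list of 31 genes of the Lands cycle, PC synthesis and turnover, 2 were higher (PMT1 among them), 1 was lower (PLP2) and 21 were alike with all libraries. When lpcat control 2 was left out, there were 3 higher, 2 lower and 20 alike. The added genes were PMT3, a relative of PMT1, and the secreted phospholipase PLA2-BETA, which was lower and read 7.25, 24.7 and 11.2 in lpcat control and 22.7, 24.6 and 32.6 in WT lysoPAF.

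Some heat shock proteins were higher in lpcat control, 5 of the 22 tested, among them HSP70, HSP90 and HSP101 genes. HSP70, HSP90 and HSP101 proteins refold or disaggregate other proteins, and heat shock factors induce them. HSP70-4 read 849, 1083 and 821 in lpcat control and 364, 348 and 368 in WT lysoPAF. HSP70-4 had a log2 difference of 1.34 ± 0.12 (SE, limma adjusted p = 1.26e-06) or, without lpcat control 2, of 1.21 ± 0.11 (adjusted p = 1.92e-07). The disaggregase HSP101 read 187, 151 and 163 in lpcat control and 99.2, 83.2 and 101 in WT lysoPAF. HSP101 differed by 0.81 ± 0.12 (limma adjusted p = 0.0015, and 0.88 without lpcat control 2). HSP70-2 read 417, 358 and 393 in lpcat control and 233, 226 and 248 in WT lysoPAF. HSP70-2 differed by 0.72 ± 0.12 (limma adjusted p = 0.00296, and 0.78 without lpcat control 2). The groups did not overlap in these 3 genes, but they were named by their small p, so this is not further support. Against WT control, lpcat control differed by 0.04 in HSP101 and -0.09 in HSP70-2, and WT lysoPAF by -0.78 and -0.81. With all libraries the median of the 22 genes was 0.03 for lpcat control and -0.44 for WT lysoPAF against WT control. HSP70-4 read 803, 777 and 768 in WT control, near lpcat control, and its differences were 0.22 for lpcat control and -1.12 for WT lysoPAF against WT control (limma adjusted p = 0.368 and 6.62e-05).

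HSP90.1, the inducible cytosolic HSP90, read 675, 1347 and 607 in lpcat control and 372, 369 and 402 in WT lysoPAF, with lpcat control 2 the highest. HSP90.1 differed by 1.11 ± 0.19 (limma adjusted p = 0.00394, and 0.75 without lpcat control 2). The coactivator MBF1C read 143, 185 and 78.4 in lpcat control and 67.2, 47.3 and 34.7 in WT lysoPAF. MBF1C differed by 1.39 ± 0.28 (limma adjusted p = 0.0155, and 1.13 without lpcat control 2), a call lost without WT lysoPAF 2 or 3 (limma adjusted p up to 0.103). The mitochondrial small heat shock protein HSP23.5 read 139, 195 and 131 in lpcat control and 81.5, 66.2 and 53.6 in WT lysoPAF. HSP23.5 differed by 1.19 ± 0.25 (limma adjusted p = 0.0192, and 1.01 without lpcat control 2), a call lost without WT lysoPAF 2 or 3 (limma adjusted p up to 0.113). Of 22 heat shock proteins tested, 5 were higher, 0 lower and 2 alike with all libraries, beside 0.838% higher over all genes. Without lpcat control 2, 7 were higher, 3 lower and 4 alike, beside 4.55% higher over all genes. The 3 lower members were small heat shock proteins, which hold unfolded proteins for refolding. The first of them, HSP17.6A, read 4.15, 129 and 1.24 in lpcat control and 26.0, 17.02 and 15.8 in WT lysoPAF, with lpcat control 2 above every other library shown. The list median moved from 0.43 to 0.09 on the log2 scale between these fits. Of 8 heat shock regulators 1 was higher (MBF1C) with all libraries and 2 without lpcat control 2 (MBF1C and HSFB2B). The heat shock factor HSFA2 read 8.29, 16.1 and 11.2 in lpcat control and 5.04, 4.73 and 2.1 in WT lysoPAF. HSFA2 passed neither way (1.39 with all libraries, limma adjusted p = 0.121).

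Several genes of defence and redox metabolism were lower in lpcat control. CYP71A12, a cytochrome P450 of indolic defence compounds in roots, read 68.4, 84.5 and 87.1 in lpcat control and 218, 248 and 217 in WT lysoPAF. CYP71A12 had a log2 difference of -1.50 ± 0.13 (SE, limma adjusted p = 1.15e-06) or, without lpcat control 2, of -1.54 ± 0.14 (adjusted p = 1.13e-07). WT control lay between (168, 172 and 164), with differences of -1.07 for lpcat control and 0.44 for WT lysoPAF against WT control (limma adjusted p = 9.13e-05 and 0.0795). SAG13, a short-chain dehydrogenase that rises in senescence and stress, read 1.04, 5.7 and 1.24 in lpcat control and 33.6, 31.2 and 32.6 in WT lysoPAF. SAG13 had a log2 difference of -3.42 ± 0.53 (SE, limma adjusted p = 0.00188) or, without lpcat control 2, of -3.97 ± 0.51 (adjusted p = 2.69e-05). WT control read 1.58, 8.63 and 2.0, with differences of -0.43 for lpcat control and 2.99 for WT lysoPAF against WT control (limma adjusted p = 0.755 and 0.0068). GLIP1, a secreted GDSL lipase of pathogen defence, read 6.22, 8.54 and 2.49 in lpcat control and 26.9, 20.8 and 21.0 in WT lysoPAF. GLIP1 differed by -1.93 ± 0.38 (limma adjusted p = 0.014, and -2.24 without lpcat control 2). CYP82C2, another P450 of indolic compounds, read 6.22, 0 and 1.24 in lpcat control and 10.9, 14.2 and 13.7 in WT lysoPAF. CYP82C2 differed by -2.45 ± 0.51 (limma adjusted p = 0.0199, and -1.78 without lpcat control 2). These calls were lost for GLIP1 without lpcat control 3 or WT lysoPAF 1 or 3 (limma adjusted p up to 0.0893) and CYP82C2 without lpcat control 3 or WT lysoPAF 1, 2 or 3 (limma adjusted p up to 0.0847). Of 15 camalexin, indolic and salicylate defence genes tested, 0 were higher, 2 lower (CYP71A12 and CYP82C2) and 8 alike with all libraries. With lpcat control 2 left out, 1 was higher and 3 were lower. The higher gene was PR5, a salicylate marker with no read in WT lysoPAF and 5.18, 0.949 and 16.2 in lpcat control. Its mean in lpcat control 1 and 3 was at least 11.3-fold higher than 3 reads over the 3 WT lysoPAF libraries.

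Glutathione S-transferases, which conjugate glutathione to reactive and foreign compounds, went both ways. GSTU5 read 74.6, 85.4 and 88.3 in lpcat control and 41.2, 33.1 and 27.3 in WT lysoPAF. GSTU5 differed by 1.28 ± 0.22 (limma adjusted p = 0.00409, and 1.26 without lpcat control 2). GSTU20 read 656, 606 and 652 in lpcat control and 451, 383 and 427 in WT lysoPAF. GSTU20 differed by 0.60 ± 0.11 (limma adjusted p = 0.00453, and 0.64 without lpcat control 2). The phi-class GSTF6 read 283, 492 and 328 in lpcat control and 708, 606 and 675 in WT lysoPAF. GSTF6 differed by -0.89 ± 0.16 (limma adjusted p = 0.00571, and -1.12 without lpcat control 2). GSTF7 read 994, 791 and 993 in lpcat control and 1549.5, 1407 and 1491 in WT lysoPAF. GSTF7 differed by -0.69 ± 0.12 (limma adjusted p = 0.0064, and -0.58 without lpcat control 2). These 2 genes are close paralogues and may share reads. Of 32 tau and phi members tested, 2 were higher, 2 lower and 14 alike with all libraries. Without lpcat control 2, 5 were higher, 6 lower and 11 alike. The shares over all genes were 0.838% higher and 0.337% lower, and 4.55% and 2.55% without lpcat control 2. VSP1, a vegetative storage protein and jasmonate marker, read 604, 465 and 706 in lpcat control and 1034, 850.0 and 898 in WT lysoPAF. VSP1 differed by -0.66 ± 0.14 (limma adjusted p = 0.0195, and -0.50 without lpcat control 2). JOX2, an oxygenase that inactivates jasmonate, read 738, 1003 and 892 in lpcat control and 589.9, 575 and 629.8 in WT lysoPAF. JOX2 differed by 0.54 ± 0.11 (limma adjusted p = 0.0185, and 0.44 without lpcat control 2). Their calls were lost for VSP1 without WT lysoPAF 1 or 3 (limma adjusted p up to 0.134) and JOX2 without lpcat control 3 or WT lysoPAF 1 or 2 (limma adjusted p up to 0.0885). With all libraries limma passed these 2 of 27 jasmonate genes and 9 were alike, and DESeq2 also called VSP2 lower. Without lpcat control 2, 3 jasmonate genes were higher, 4 lower and 8 alike in limma. Of 31 WRKY factors, 0 passed in limma with all libraries, 3 were at an unadjusted p under 0.05, 1 was lower in edgeR and DESeq2, and 14 were alike. In the fit without lpcat control 2, 4 were lower, among them WRKY54. It read 14.5, 37.0 and 14.9 in lpcat control and 37.8, 35.9 and 38.9 in WT lysoPAF. WRKY54 differed by -1.29 without lpcat control 2 (limma adjusted p = 0.00619).

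FIT and AT4 stood out among the iron and phosphate genes by their higher counts in WT lysoPAF. FIT, the transcription factor of iron uptake, read 227, 286 and 282 in lpcat control and 392, 406 and 394 in WT lysoPAF. FIT had a log2 difference of -0.59 ± 0.10 (SE, limma adjusted p = 0.00251) or, without lpcat control 2, of -0.65 ± 0.11 (adjusted p = 3.88e-04). Its lpcat control counts lay around WT control (257, 254 and 251), with differences of 0.05 for lpcat control and 0.64 for WT lysoPAF against WT control (limma adjusted p = 0.844 and 0.00229). FIT was the only 1 of 24 iron deficiency genes to pass with all libraries, and 7 were alike. When lpcat control 2 was left out, 1 was higher (F6H1) and 4 lower (FIT, the iron transporter gene IRT1, bHLH38 and bHLH39). The iron-responsive factor bHLH39 read 10.4, 33.2 and 2.49 in lpcat control and 38.7, 22.7 and 24.2 in WT lysoPAF. It was lower only without lpcat control 2 (-2.19, limma adjusted p = 0.00261). AT4, a non-coding RNA that sequesters miR399 in phosphate starvation, read 883, 1947 and 933 in lpcat control and 2173, 2063 and 2189 in WT lysoPAF. AT4 had a log2 difference of -0.87 ± 0.19 (SE, limma adjusted p = 0.0252) or, without lpcat control 2, of -1.24 ± 0.09 (adjusted p = 1.06e-08). In AT4, lpcat control 2 lay close to WT lysoPAF, and with that library in, the call was lost without lpcat control 1 or 3 or WT lysoPAF 1, 2 or 3 (limma adjusted p up to 0.123). Of 25 phosphate starvation genes tested, 1 was higher (PECP1), 1 lower (AT4) and 7 alike with all libraries. Without lpcat control 2, 3 were higher, 3 lower and 10 alike. Beside both lists, 0.838% of all genes were higher and 0.337% lower, and 4.55% and 2.55% without lpcat control 2. NIP5;1, a channel for boric acid, read 476, 395 and 406 in lpcat control and 534, 578 and 575 in WT lysoPAF. NIP5;1 differed by -0.41 ± 0.09 (limma adjusted p = 0.0379, and -0.35 without lpcat control 2), with the call lost without lpcat control 3 or WT lysoPAF 1, 2 or 3 (limma adjusted p up to 0.139).

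Several genes of xylem and of root hairs were higher in lpcat control. In bulk roots, more cells of a type and more RNA per cell cannot be told apart. The metacaspase MC9, which clears xylem cells after death, read 324, 419 and 296 in lpcat control and 186, 154 and 172 in WT lysoPAF. MC9 had a log2 difference of 1.00 ± 0.14 (SE, limma adjusted p = 5.91e-04) or, without lpcat control 2, of 0.86 ± 0.13 (adjusted p = 2.55e-04). CESA4, a cellulose synthase of the secondary wall, read 652, 728 and 631 in lpcat control and 437, 449 and 441 in WT lysoPAF. CESA4 differed by 0.60 ± 0.10 (limma adjusted p = 0.00232, and 0.54 without lpcat control 2). The laccase LAC4, which polymerises lignin, read 1159, 1217 and 1172 in lpcat control and 817, 830.2 and 812 in WT lysoPAF. LAC4 differed by 0.53 ± 0.09 (limma adjusted p = 0.00559, and 0.51 without lpcat control 2). In all 3 genes every lpcat control library was above every WT lysoPAF library. They were named by their small p, so this is not further support. The ribonuclease RNS3 and the xylem cysteine peptidase XCP1 passed as well. RNS3 read 179, 244 and 156 in lpcat control and 129, 81.3 and 98.8 in WT lysoPAF. XCP1 read 2071, 2162 and 1550.4 in lpcat control and 1344, 1128 and 1209 in WT lysoPAF. Their calls were lost for RNS3 without WT lysoPAF 2 (limma adjusted p up to 0.0535) and XCP1 without lpcat control 1 or WT lysoPAF 1, 2 or 3 (limma adjusted p up to 0.142). Of 16 xylem secondary wall genes, 7 were higher, 0 lower and 3 alike with all libraries, with a median log2 difference of 0.41, beside 0.838% higher over all genes. Without lpcat control 2 the same 7 genes were higher, 0 lower and 4 alike, with a median of 0.36, beside 4.55% higher over all genes.

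RHS12, a pectin methylesterase of root hairs, read 549, 469.9 and 511 in lpcat control and 316, 359 and 333 in WT lysoPAF. RHS12 had a log2 difference of 0.60 ± 0.10 (SE, limma adjusted p = 0.00286) or, without lpcat control 2, of 0.66 ± 0.11 (adjusted p = 3.42e-04). WT control read 275, 256 and 289, with differences of 0.90 for lpcat control and 0.30 for WT lysoPAF against WT control (limma adjusted p = 3.84e-05 and 0.12). The proton pump AHA7 read 1009, 855 and 1073 in lpcat control and 655, 719.5 and 725 in WT lysoPAF. The wall enzyme XTH14 read 2066, 1547 and 2192 in lpcat control and 1336, 1276 and 1367 in WT lysoPAF. COBL9, a protein of oriented cell wall growth in hairs, read 895, 762 and 898 in lpcat control and 589, 640.1 and 667 in WT lysoPAF. These 3 genes differed by 0.48, 0.53 and 0.43 with all libraries (limma adjusted p = 0.00699, 0.00888 and 0.0317). Without lpcat control 2 they differed by 0.57, 0.68 and 0.51. These calls were lost for AHA7 without WT lysoPAF 1 (limma adjusted p up to 0.0604), XTH14 without lpcat control 3 or WT lysoPAF 2 (limma adjusted p up to 0.0593) and COBL9 without lpcat control 1 or 3 or WT lysoPAF 1, 2 or 3 (limma adjusted p up to 0.165). Of 23 root hair genes 4 were higher, 0 lower and 8 alike with all libraries. Without lpcat control 2, 11 were higher, 1 lower and 7 alike. Over all genes 0.838% were higher and 0.337% lower with all libraries, and 4.55% and 2.55% without lpcat control 2. Among 67 class III peroxidases, which use hydrogen peroxide in the wall, 4 were higher, 0 lower and 28 alike with all libraries, and 18 were higher, 4 lower and 26 alike without lpcat control 2. PER57 read 4246, 3561 and 4106 in lpcat control and 2815, 2689 and 2788 in WT lysoPAF. PER57 differed by 0.52 ± 0.09 (limma adjusted p = 0.00251, and 0.60 without lpcat control 2), and it alone of the 4 passed without each library in turn. The calls were lost for PER24 without WT lysoPAF 1 or 3 (limma adjusted p up to 0.071), PER51 without lpcat control 1 or 3 or WT lysoPAF 1, 2 or 3 (limma adjusted p up to 0.13) and PER66 without lpcat control 3 or WT lysoPAF 1, 2 or 3 (limma adjusted p up to 0.14). Of the root cell type markers COBL9 and XCP1 were higher and 10 of 14 alike with all libraries. Without lpcat control 2, 3 of these markers were higher, 1 lower and 8 alike. WER, which specifies hairless epidermis, read 99.5, 193 and 122 in lpcat control and 192, 166 and 195 in WT lysoPAF. WER was lower only without lpcat control 2 (-0.73, limma adjusted p = 9.73e-04).

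Among 22 aquaporins 3 were higher, 1 (NIP5;1) lower and 14 alike with all libraries. Without lpcat control 2, 7 were higher, 1 lower and 12 alike. Over all genes 0.838% were higher with all libraries and 4.55% without lpcat control 2. PIP2;6, a water channel of the plasma membrane, read 211, 116 and 184 in lpcat control and 75.6, 62.4 and 68.3 in WT lysoPAF. PIP2;6 had a log2 difference of 1.26 ± 0.22 (SE, limma adjusted p = 0.00454) or, without lpcat control 2, of 1.51 ± 0.20 (adjusted p = 3.94e-05). PIP2;3 (0.59, limma adjusted p = 0.0196) and PIP1;4 (0.44, adjusted p = 0.0342) were also higher, and their calls were lost for PIP2;3 without lpcat control 1 or 3 or WT lysoPAF 2 or 3 (limma adjusted p up to 0.107) and PIP1;4 without lpcat control 3 or WT lysoPAF 1, 2 or 3 (limma adjusted p up to 0.151). Of 24 phenylpropanoid and flavonoid enzymes the flavanone hydroxylase F3H alone passed with all libraries, and 17 were alike. F3H read 679.8, 833 and 706 in lpcat control and 511, 479 and 512 in WT lysoPAF. It differed by 0.56 ± 0.12 (limma adjusted p = 0.0195, and 0.47 without lpcat control 2), a call lost without WT lysoPAF 1, 2 or 3 (limma adjusted p up to 0.0889). With lpcat control 2 left out, 6 of these enzymes were higher.

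Several of the widest differences were in genes of little known function that already separated the genotypes on control medium. MRD1 read 36.3, 45.6 and 39.8 in lpcat control and 433, 384 and 387 in WT lysoPAF. MRD1 had a log2 difference of -3.28 ± 0.14 (SE, limma adjusted p = 2.48e-11) or, without lpcat control 2, of -3.36 ± 0.15 (adjusted p = 4.91e-13). WT control read 294, 302 and 288, with differences of -2.84 for lpcat control and 0.44 for WT lysoPAF against WT control (limma adjusted p = 3.79e-10 and 0.103). AT5G35935, annotated as a transposable element gene, read 437, 379 and 483 in lpcat control and 56.3, 55.8 and 48.4 in WT lysoPAF. AT5G35935 had a log2 difference of 2.99 ± 0.17 (SE, limma adjusted p = 1.32e-09) or, without lpcat control 2, of 3.08 ± 0.17 (adjusted p = 6.47e-11). WT control read 62.5, 60.4 and 73.8. In both genes lpcat control 2 lay with lpcat control 1 and 3. The non-coding RNA AT2G01422 had no read in WT lysoPAF or WT control and read 137, 60.8 and 123 in lpcat control. Set against 3 reads over the 3 WT lysoPAF libraries, its mean was at least 113-fold higher, or at least 137-fold without lpcat control 2.

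AT1G63055, the next gene to LPCAT2 in the TAIR10.1 annotation, read 74.6, 147 and 75.9 in lpcat control and 18.5, 12.3 and 11.6 in WT lysoPAF. AT1G63055 had a log2 difference of 2.68 ± 0.29 (SE, limma adjusted p = 3.00e-05) or, without lpcat control 2, of 2.36 ± 0.29 (adjusted p = 1.33e-05). WT control read 5.54, 4.79 and 7.98. It starts at the same base as AT1G63057 and the library kit does not mark strand, so reads of these genes may be mixed. AT3G19320, which encodes a leucine-rich repeat protein, read 29.0, 10.4 and 17.42 in lpcat control and 71.4, 79.4 and 70.4 in WT lysoPAF. AT3G19320 differed by -2.01 ± 0.32 (limma adjusted p = 0.00232, and -1.67 without lpcat control 2). AT1G13130, a cellulase-type glycosyl hydrolase, read 44.6, 27.5 and 53.5 in lpcat control and 13.4, 3.78 and 10.5 in WT lysoPAF. AT1G13130 differed by 2.16 ± 0.34 (limma adjusted p = 0.00181, and 2.43 without lpcat control 2). AT1G36622 read 5.18, 4.75 and 3.73 in lpcat control and 22.7, 13.2 and 22.1 in WT lysoPAF. AT1G36622 differed by -1.84 ± 0.33 (limma adjusted p = 0.00504, and -1.87 without lpcat control 2). Both are low in count, and the rule that named them required that the groups did not overlap. The transposable element AT5G44925 and the rhamnogalacturonate lyase AT4G24430 were higher by 3.14 and 1.78 with all libraries (limma adjusted p = 0.0269 and 0.023). Without lpcat control 2 they were higher by 2.71 and 1.70. With lpcat control 2 in, the AT5G44925 call was lost without lpcat control 3 or WT lysoPAF 1 or 3 (limma adjusted p up to 0.178). That of AT4G24430 was lost without lpcat control 3 or WT lysoPAF 3 (limma adjusted p up to 0.111). Of the 51 genes called higher with all libraries, 18 passed against WT control in lpcat control alone, 10 in WT lysoPAF alone, 3 in both and 20 in neither. Of the 29 called lower the numbers were 7, 7, 0 and 15. These comparisons share libraries, and passing in 1 and not in the other was not tested as a difference.

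**Figure D3:**
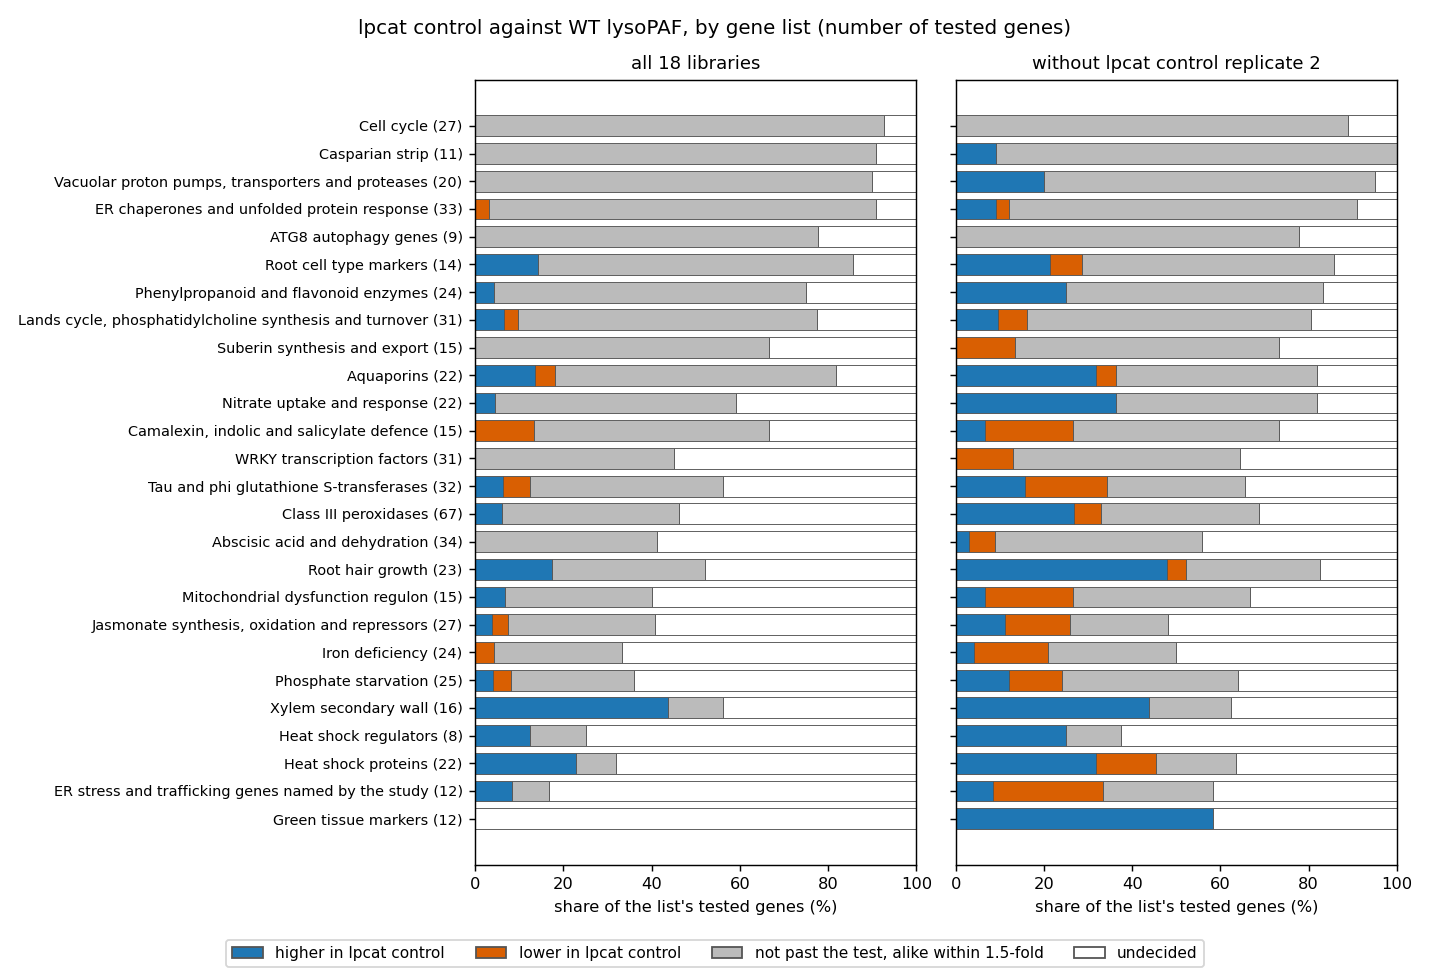
Share of each list's tested genes (number in brackets) that were higher in lpcat control, lower, alike within 1.5-fold without passing the test, or undecided, with all 18 libraries on the left and without lpcat control 2 on the right. Cell cycle (25 of 27), Casparian strip and vacuolar genes are mostly alike, xylem genes are the most often higher with all libraries (7 of 16), and the green tissue markers change most between the panels (0 and 7 of 12 higher).

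Growth and housekeeping lists were mostly alike, beside 52.9% alike over all genes with all libraries. A gene is alike only if its interval is narrow, so these shares also depend on how precisely the genes were measured. Of 27 cell cycle genes tested, 0 passed in limma with all libraries (2 at an unadjusted p under 0.05, and 0 in edgeR or DESeq2). Of these genes 25 were alike with all libraries and 24 without lpcat control 2. PCNA2, the replication clamp, read 526, 631 and 503 in lpcat control and 487, 479 and 432 in WT lysoPAF, with an interval of 0.02 to 0.47. The cyclin CYCA2;4 was 1 of the 2 undecided genes. It read 920.3, 552 and 969 in lpcat control and 1009, 919 and 968 in WT lysoPAF, with lpcat control 2 alone low. Of 20 vacuolar pumps, transporters and proteases 18 were alike and 0 passed in limma with all libraries (6 at an unadjusted p under 0.05, with 2 higher in DESeq2 and 0 in edgeR). In the fit without lpcat control 2, 4 were higher. Among these the proton pump subunit VHA-A3 read 2952, 2522 and 2619 in lpcat control and 2213, 2315 and 2204 in WT lysoPAF. The protease RD21A read 4830.4, 4360.1 and 4406 in lpcat control and 3769, 3151 and 3409 in WT lysoPAF. Of 11 Casparian strip genes 10 were alike both ways, and 0 passed in limma with all libraries (6 at an unadjusted p under 0.05, with 1 higher in DESeq2 and 0 in edgeR). The dirigent-like ESB1 read 3559, 3195 and 3069.7 in lpcat control and 2587, 2581 and 2216 in WT lysoPAF. In the main limma fit ESB1 was higher without lpcat control 2 (0.43, limma adjusted p = 0.0424) and did not pass with it. ESB1 passed in 3 of 18 alternatives, leaving out lpcat control 2 among them.

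Of 9 autophagy genes of the ATG8 list 7 were alike both ways and 0 passed in limma, edgeR or DESeq2 (0 at an unadjusted limma p under 0.05 with all libraries, and 2 without lpcat control 2). The autophagy receptor NBR1 read 2713, 4493 and 2672 in lpcat control and 2709, 2572 and 2643 in WT lysoPAF. There lpcat control 2 was high and lpcat control 1 and 3 lay near the WT lysoPAF values, and the gene was alike (-0.03 to 0.58). Among 15 suberin genes 10 were alike and 0 passed in limma with all libraries (3 at an unadjusted p under 0.05, and 0 in edgeR or DESeq2), and 2 were lower without lpcat control 2. These were fatty acyl reductases of suberin. FAR4 read 257, 435 and 263 in lpcat control and 376, 406 and 389 in WT lysoPAF. FAR5 read 232, 384 and 223 in lpcat control and 369, 324 and 343 in WT lysoPAF. In both, lpcat control 1 and 3 were below every WT lysoPAF library. Of 34 abscisic acid and dehydration genes 14 were alike and 0 passed in limma with all libraries (6 at an unadjusted p under 0.05, with 1 higher in DESeq2 and in edgeR with RLE factors). When lpcat control 2 was left out, 1 was higher and 2 were lower, beside 4.55% and 2.55% over all genes. The dehydrin ERD10 read 4012, 6655 and 4335 in lpcat control and 3508, 3261 and 3502 in WT lysoPAF, with lpcat control 2 the highest. Of 15 genes of the mitochondrial dysfunction regulon HSP23.5 alone passed with all libraries and 5 were alike. The alternative oxidase AOX1D read 0, 2.85 and 0 in lpcat control and 9.24, 3.78 and 11.6 in WT lysoPAF. In the main limma fit AOX1D was lower without lpcat control 2 (-3.09, limma adjusted p = 0.00153) and did not pass with it. AOX1D passed in 2 of 18 alternatives, leaving out lpcat control 2 among them.

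Some alike genes were away from WT control in both groups. Of genes alike with all libraries, 116 passed against WT control the same way in both groups, 101 upward and 15 downward. Without lpcat control 2 there were 155, of which 123 were above and 32 below WT control, and 102 genes met the rule both ways. Both comparisons use the same WT control libraries, so this count is a description. AGD11, a gene annotated both as an ARF-GAP domain protein and as calmodulin-like CML3, read 109.9, 95.9 and 90.8 in lpcat control and 101, 98.3 and 104 in WT lysoPAF, and 61.7, 58.5 and 48.9 in WT control. Its differences were 0.80 for lpcat control and 0.84 for WT lysoPAF against WT control (limma adjusted p = 0.00548 and 0.00694), and the interval between the 2 groups was -0.35 to 0.28. TIP2;3, a tonoplast channel for ammonia and water, read 449.8, 578 and 442 in lpcat control and 587, 394 and 452 in WT lysoPAF, and 260.4, 247 and 302 in WT control, with an interval of -0.32 to 0.40. In both genes no library of lpcat control or WT lysoPAF reached down to WT control. The rule that named them required a pass above WT control in both groups, so this is not further support.

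PHT1;4, a root phosphate transporter, read 256, 579 and 315 in lpcat control and 345, 362 and 364 in WT lysoPAF, and 209.7, 201 and 175 in WT control. It was alike with all libraries (-0.37 to 0.39) and without lpcat control 2 (-0.55 to -0.11), although lpcat control 2 was the highest library. The long non-coding RNA gene AT2G30362 read 43.5, 48.4 and 47.3 in lpcat control and 45.4, 42.5 and 55.7 in WT lysoPAF. It read 23.7, 26.9 and 23.9 in WT control. GPAT7, an acyltransferase of suberin and wound responses, and AT2G36220 were alike with all libraries but undecided without lpcat control 2, where their intervals were -0.86 to 0.02 and -0.69 to -0.04. AT2G36220 read 344, 522 and 231 in lpcat control and 398, 349 and 344 in WT lysoPAF, and 181, 172 and 163 in WT control.

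Downward, STY2, a RING-like zinc finger regulator of the SHORT INTERNODES family, read 51.8, 32.3 and 39.8 in lpcat control and 42.9, 35.9 and 42.1 in WT lysoPAF, and 73.6, 65.2 and 70.8 in WT control. AT4G32970 read 67.4, 73.1 and 73.4 in lpcat control and 65.5, 64.3 and 76.8 in WT lysoPAF, and 104, 99.7 and 129 in WT control. CDC20.2, an activator of the anaphase-promoting complex, read 265, 355 and 358 in lpcat control and 293, 357 and 348 in WT lysoPAF, and 431, 439 and 525 in WT control. CDC20.2 had differences of -0.52 for lpcat control and -0.48 for WT lysoPAF against WT control (limma adjusted p = 0.0322 and 0.0493). AT3G42800 read 75.7, 59.8 and 72.2 in lpcat control and 69.7, 70.9 and 56.8 in WT lysoPAF, and 97.3, 108 and 121 in WT control. In these 4 genes WT control was above every library of both groups. The rule that named them required a pass below WT control in both groups, so this is not further support.

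**Figure D4:**
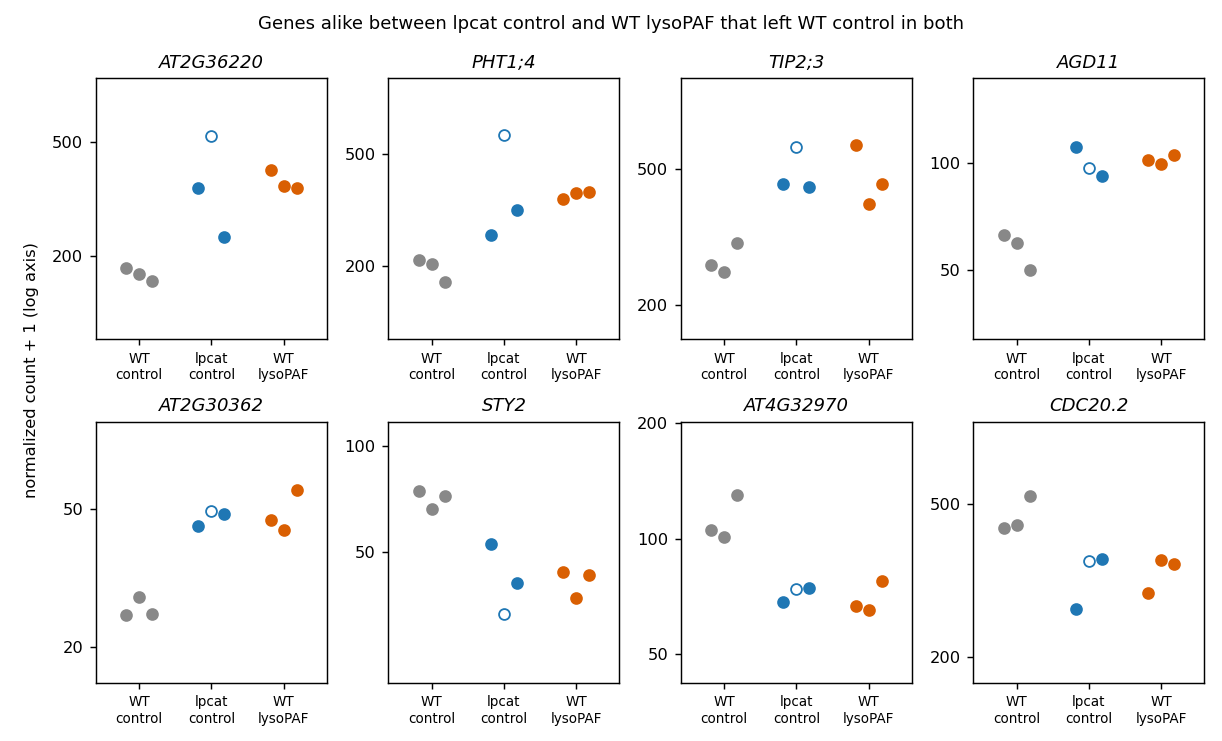
Normalized counts plus 1 on a log axis for 8 genes that were alike between lpcat control and WT lysoPAF with all libraries and that passed the same way against WT control in both, each point 1 library, with lpcat control 2 as an open circle. AT2G36220, PHT1;4, TIP2;3, AGD11 and AT2G30362 lie above WT control in both groups, and STY2, AT4G32970 and CDC20.2 lie below it.

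Leaving out lpcat control 2 added 198 genes called higher and 172 called lower. Under the rule for naming genes, the 4 widest of the added genes that were higher were neighbouring genes of lipid transfer protein type, AT4G22485, AT4G22490, AT4G22505 and AT4G22513. AT4G22485 read 1959, 3.8 and 2080.5 in lpcat control and 1.68, 5.67 and 5.26 in WT lysoPAF. There lpcat control 2 lay among the WT lysoPAF libraries. The log2 difference was 5.81 (limma adjusted p = 0.0533) with all libraries and 8.71 (adjusted p = 2.04e-09) without lpcat control 2. Of 18 alternatives, AT4G22485 passed in 7, AT4G22505 in 6, AT4G22490 in 5 and AT4G22513 in 4. Leaving out lpcat control 2 is 1 of these, and the others keep that library. AT4G22505 had no read in WT lysoPAF and in lpcat control 2 and read 974 and 1139 in lpcat control 1 and 3, a mean at least 1120-fold higher than 3 reads over the 3 WT lysoPAF libraries. AT4G22513 had the same form, at least 79.2-fold higher. AT4G22490 read 123, 0 and 133 in lpcat control and 0.84, 0.946 and 1.05 in WT lysoPAF. These genes are paralogues and may share reads.

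MLP28, a latex-protein homologue, passed both ways but with lpcat control 2 far from its group. It read 581, 88.3 and 533 in lpcat control and 16.8, 63.4 and 41.0 in WT lysoPAF, and 244, 282 and 592 in WT control. MLP28 had a log2 difference of 3.06 ± 0.57 (SE, limma adjusted p = 0.00754) or, without lpcat control 2, of 3.94 ± 0.42 (adjusted p = 2.30e-06). With lpcat control 2 in, the call was lost without lpcat control 3 or WT lysoPAF 1 (limma adjusted p up to 0.0788). The green tissue markers had lpcat control 2 on the side of WT lysoPAF too. Of 12, 0 passed in limma with all libraries (3 at an unadjusted p under 0.05, and 0 in edgeR or DESeq2) and 7 were higher without lpcat control 2. Their median log2 difference moved from 0.61 to 1.55. The chlorophyll-binding protein gene LHCB2.1 read 111, 15.2 and 117 in lpcat control and 16.0, 24.6 and 23.1 in WT lysoPAF. RBCS2B, a small subunit of Rubisco, read 56.0, 5.7 and 92.1 in lpcat control and 0, 4.73 and 9.46 in WT lysoPAF. The low green sums of lpcat control 2 and WT lysoPAF move with these genes, and their part in the genes added without lpcat control 2 was not tested.

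Nitrate genes had the same form. Of 22 tested, 1 (NIA1) was higher, 0 lower and 12 alike with all libraries, and 8 were higher and 12 alike without lpcat control 2. The nitrate reductase NIA1 read 3263, 2159 and 3304 in lpcat control and 1697, 2215 and 2061 in WT lysoPAF. NIA1 had a log2 difference of 0.53 ± 0.12 (SE, limma adjusted p = 0.0446) or, without lpcat control 2, of 0.73 ± 0.09 (adjusted p = 1.90e-05). In NIA1 lpcat control 2 overlapped WT lysoPAF, and with it in, the call was lost without lpcat control 1 or 3 or WT lysoPAF 1, 2 or 3 (limma adjusted p up to 0.227). NRT3.1, the partner of high-affinity nitrate transporters, read 258, 168 and 282 in lpcat control and 164, 145 and 165 in WT lysoPAF. In the main limma fit NRT3.1 passed without lpcat control 2 (0.77, limma adjusted p = 7.76e-04) and not with it. It passed in 3 of 18 alternatives, leaving out lpcat control 2 among them.

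In the lower genes named from those added without lpcat control 2, that library was high. Beside SEC31A these were AT2G01300, CML37 and AT1G21520. AT2G01300 read 0, 43.7 and 0 in lpcat control and 14.3, 17.02 and 10.5 in WT lysoPAF. CML37, a calmodulin-like protein of stress and wounding, read 4.15, 147 and 0 in lpcat control and 31.1, 21.7 and 18.9 in WT lysoPAF. AT1G21520 read 0, 18.04 and 2.49 in lpcat control and 27.7, 22.7 and 21.0 in WT lysoPAF. With lpcat control 2 left out, the differences were -3.88, -3.43 and -3.72 (limma adjusted p = 6.18e-06, 3.91e-05 and 2.99e-05). In lpcat on lysoPAF AT2G01300 read 41.3, 79.5 and 117, CML37 129, 165 and 159 and SEC31A 113, 203 and 230.4. In all 3 genes lpcat control 2 lay within that range. In LPCAT1, LPCAT2, MRD1 and AT5G35935 it lay far from WT control and WT lysoPAF, as did lpcat control 1 and 3. LPCAT1 and AT5G35935 overlapped between the 2 media in lpcat, and AT5G35935 read 379 in lpcat control 2 and 375 to 405 in lpcat on lysoPAF. LPCAT2 and MRD1 did not overlap. On lysoPAF, lpcat read 613, 583 and 582 for LPCAT2 and 51.9, 66.5 and 62.3 for MRD1, above every lpcat control library. These differences between media in lpcat were not tested.

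**Figure D5:**
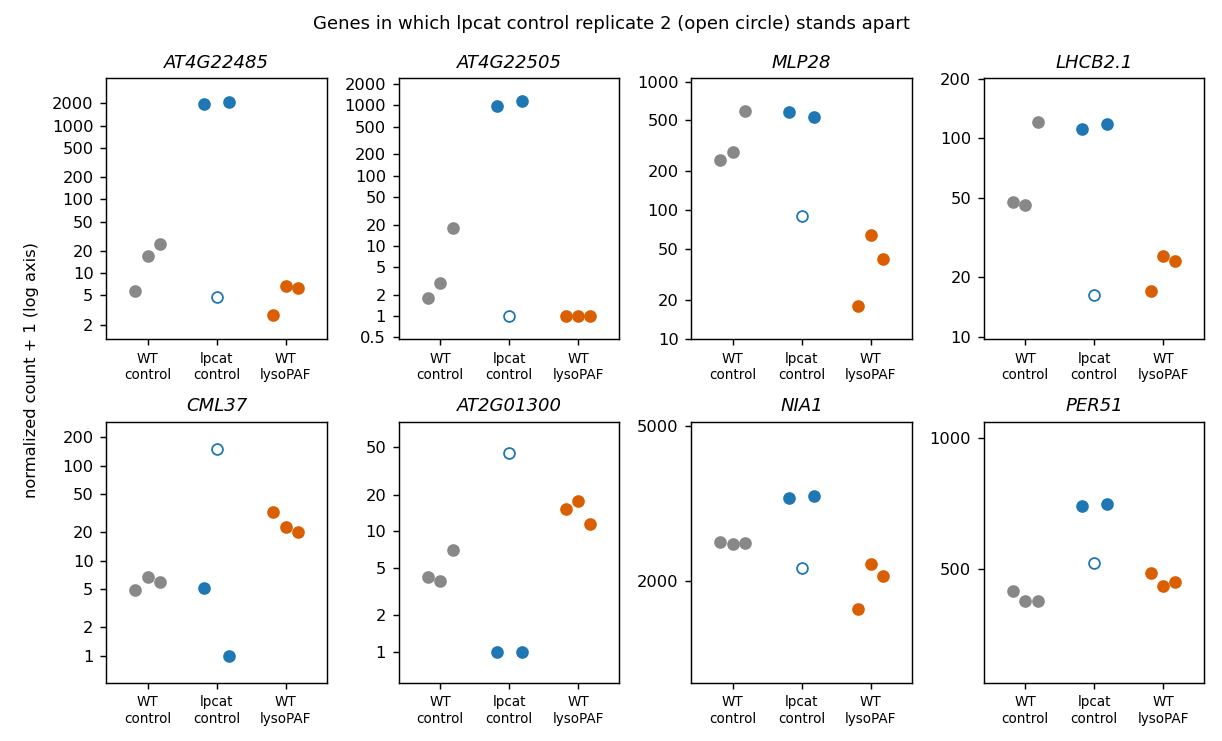
Normalized counts plus 1 on a log axis for 8 genes in which lpcat control 2 (open circle) leaves lpcat control 1 and 3, each point 1 library of WT control, lpcat control or WT lysoPAF. In AT4G22485, AT4G22505, MLP28, LHCB2.1, NIA1 and PER51 it lies near the WT lysoPAF libraries, and in CML37 and AT2G01300 it lies above them.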

How the data were processed

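The 18 root libraries were made with a TruSeq RNA kit (v2) that does not mark strand. Reads were aligned by the authors to TAIR10, and the submitters' processing notes name STAR 2.4.0j, StringTie 1.0.3, HTSeq 0.6.0 and DESeq2 1.12.4. The deposited table holds a signal value per gene, the normalized read count, which the authors made by dividing each count by 1 size factor per library. All 400470 values above 0 came back as whole reads to within 0.001, and these recovered reads served edgeR and DESeq2 as alternatives.

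The 23760 of 35197 rows that summed to 5 reads or more were tested. Values were compared as log2 of the normalized count plus 1 with limma 3.58.1 (R 4.3.3), with a variance trend, 1 mean per group over all 18 libraries and Benjamini-Hochberg adjustment over all tested genes. Fold changes on this scale understate those of low genes. Genes were called at an adjusted p under 0.05 and a log2 difference over 1, and list members at the adjusted p alone. The test was checked on simulated data.

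Members and the 27 gene lists (608 distinct genes, 596 with a row) were chosen with earlier results of these data known. Named genes were LPCAT1 and LPCAT2, genes named in the study's account of its RNA-seq, the 8 most raised and 8 most lowered genes called with and without lpcat control 2 at 1 CPM or more without overlap, up to 4 members per list by p, 6 raised and 4 lowered alike genes that passed the same way in both groups against WT control, and 4 raised and 4 lowered genes called only without lpcat control 2. HSP17.6A and list members named only by symbol fall outside this rule and were chosen after their values were seen. Promoter windows come from RefSeq's TAIR10.1, whose coordinates are not those of the table, which gives none. AGI codes, carried by 34696 rows, matched that annotation in 33993. Alternatives were edgeR 4.0.16, DESeq2 1.42.0, other filters, pseudocounts, scaling and thresholds, the 6 libraries alone, a replicate block and leaving out each library. Values of 1 list member are not reported here.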

Additional observations from a re-analysis of the deposited data

How the results depend on the processing

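All counts are genes higher and lower in lpcat control at a log2 difference over 1. With all libraries (51 and 29), the fit to the 6 compared libraries alone gave 3 and 1, DESeq2 with shrinkage 21 and 7, and an adjusted p under 0.01 gave 31 and 12. DESeq2 without shrinkage gave 76 and 25, edgeR 55 and 23 with TMM factors and 61 and 22 with RLE factors. Leaving out 1 library gave 33 to 243 higher and 14 to 199 lower, both highest without lpcat control 2 and lowest without WT lysoPAF 3. Without lpcat control 2 (243 and 199), the compared libraries alone gave 65 and 31, DESeq2 172 and 94 without and 49 and 27 with shrinkage, edgeR 213 and 120 with TMM factors and 225 and 114 with RLE factors, a pseudocount of 5 gave 207 and 104, and an adjusted p under 0.01 gave 120 and 92. Leaving out a further library gave 104 to 208 higher and 110 to 201 lower, with both lowest values without lpcat control 3. Genes alike numbered 5075 with all libraries and 4229 without lpcat control 2 under a tighter bound of 0.32 on the log2 scale. They were not computed for edgeR, for DESeq2 with shrinkage or for the stricter p. Other filters, the pseudocount of 0.5 and TMM scaling on nuclear genes moved each count by less than 1.5 times, no scaling moved the median of all genes by 0.1, and 0 results reversed. Causes of these shifts were not tested. With the replicate number as a replicate block the counts were 57 and 32 (12677 alike), and 246 and 192 (11812 alike) without lpcat control 2. Deviations of libraries sharing a number correlated at 0.00177, -0.0109 and 0.0379 across genes. With 3 libraries per group, these values cannot decide whether the numbers pair the libraries, and the labels do not say. Of the 55 named genes that passed with all libraries, 28 passed without each library in turn.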
